A study of Mus musculus with 10 samples.

Results

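The main axis of variation among the 10 tumour libraries of this study is described here across genes. The libraries were sorted by a size ratio, the factor by which the library total implied by the deposited FPKM values exceeds the sum of the deposited counts. Libraries with a ratio of 1.09 or more were called high, and the others low, which placed 5 of 10 libraries on each side. The high libraries were control 1 and IL-15 1, 3, 4 and 5, and the low libraries were control 2, 3, 4 and 5 and IL-15 2. Because the libraries were selected on a value measured from the same counts, every difference between high and low libraries is given as a description with no test.

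The tumours were xenografts of LNCaP, an androgen-responsive human prostate cancer line derived from a lymph node metastasis, grown under the skin of NOD.Cg-Prkdcscid Il2rgtm1Wjl/SzJ mice, a strain that lacks mature T, B and NK cells. All 10 tumours came from mice given sipuleucel-T, a cell immunotherapy made from human blood leukocytes that are exposed in culture to a fusion protein containing the prostate antigen PAP, into the peritoneum in 100 µl. The IL-15 group (5 tumours) was in addition given recombinant human IL-15 at 1 µg, a growth cytokine for T and NK cells. The design text describes their sipuleucel-T as IL-15 treated, whereas the treatment label gives control cells with IL-15, and the control mice received vehicle. Tumours were collected on day 7 after the last injection, and 1 library was made from bulk tumour RNA per sample. The labels give the organism as mouse, but the tables hold human genes, so the values are reads assigned to human genes. Whether mouse reads are among them was not tested. COL1A1, a stromal collagen, had 153 to 876 counts per library and KRT14, a keratin of skin, a mean of 44.7 CPM. COL1A1 made up 52.7% of the summed fibroblast markers and KRT14 51.2% of the summed skin keratinocyte markers, so other members were detected too. Some members of these lists were near or at 0. KRT5 had 6 counts over the high and 2 over the low libraries, and POSTN and TP63 had no count in any library. No age is given in the labels, and all tumours come from 1 cell line.

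Bulk RNA is shared out among genes: when a few abundant genes take more of a library, every other gene takes less, and a scaling factor summarises that balance. In a growing tumour cell, the genes for ribosomes and for the respiratory chain are among the most abundant messages, and they support protein synthesis and ATP production. LNCaP cells also devote much of their transcription to androgen-regulated secreted proteins such as prostate-specific antigen. In bulk samples, fewer cells of a type and less RNA per cell cannot be told apart.

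Among the high libraries the ratio was 1.16 in control 1, 1.19 in IL-15 1, 1.24 in IL-15 3, 1.11 in IL-15 4 and 1.10 in IL-15 5. Among the low libraries it was 1.08 in control 2, 1.01 in control 3, 1.07 in control 4, 1.02 in control 5 and 1.07 in IL-15 2. The gap at the threshold was narrow, with IL-15 5 just above it and control 2 just below. Within a library the ratio was the same for every gene, so it is a property of the library and not of particular genes. The TMM scaling factor, computed from the counts, ranged from 0.999 to 1.10 in the high libraries and from 0.924 to 0.987 in the low libraries. The ratio is likewise a scaling factor of a library, so this separation is not independent of how the libraries were sorted. The first principal component of log2 CPM (counts scaled to a common library size) held 26.8% of the variance, with scores from -2.12 to 54.0 in the high libraries and from -55.4 to -9.47 in the low libraries. IL-15 5 lay nearest to the low side on the ratio and on this component.

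**Figure D1:**
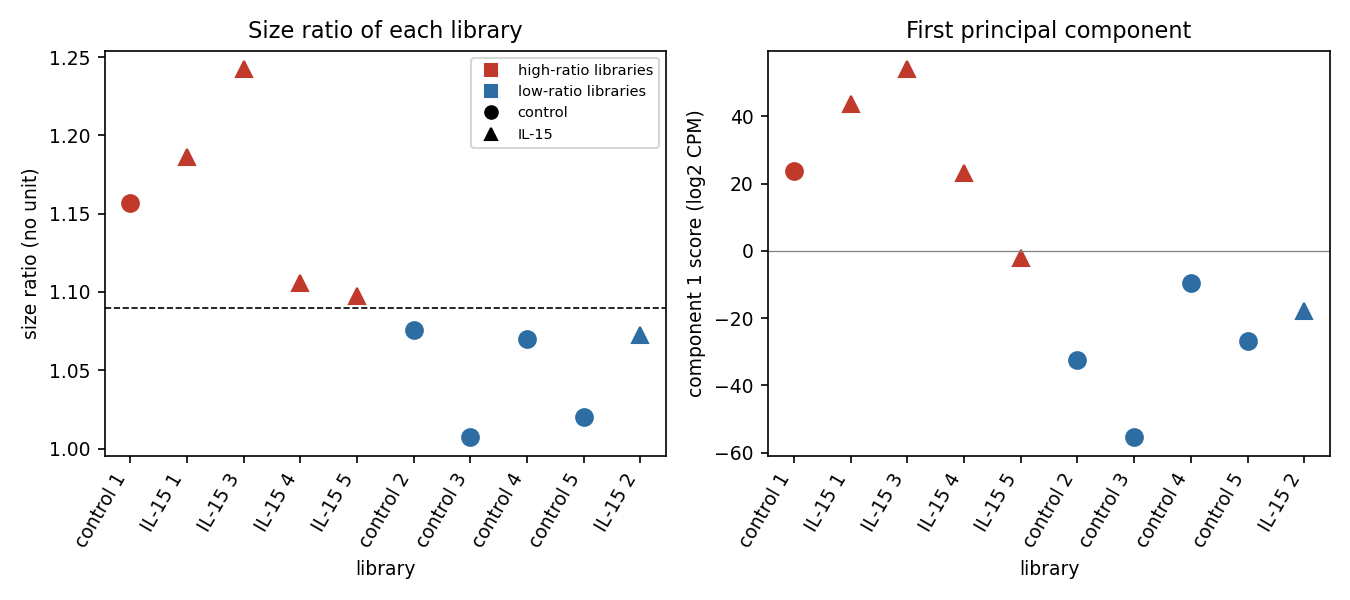
Size ratio (left, no unit, dashed line at 1.09) and score on the first principal component of log2 CPM (right) for each of the 10 libraries, with high libraries in red, low libraries in blue, circles for control and triangles for IL-15. The high libraries span 1.10 to 1.24 and the low libraries 1.01 to 1.08, and IL-15 5 is the high library with the lowest component score.

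The treatment label was not used to sort the libraries, so the ratio could be tested against it. The ratio was 1.14 ± 0.0709 (SD, n = 5) in the IL-15 group and 1.07 ± 0.0591 (SD, n = 5) in the control group. The difference of 0.0749 did not pass an exact permutation test, two-sided and with 252 assignments (p = 0.1032, where the smallest possible p is 0.00794). Of the 5 IL-15 libraries 4 were high, and of the 5 control libraries 1 was high. Control 1 decided this call: without it the difference was 0.0976 with an exact permutation p of 0.03175. Treatment and the high or low side are therefore partly confounded, and values within each treatment group are given beside several results below.

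Library totals were 13.6 to 15.1 M counts in the high libraries and 14.5 to 19.3 M in the low libraries, so 3 counts corresponded to 0.155 to 0.221 CPM. No libraries were near copies of each other, with a chi-square per degree of freedom of 20.4 to 90.3 over 45 pairs. KLK3, which encodes prostate-specific antigen and defines the luminal prostate lineage, was abundant in all 10 libraries, from 3323 to 7434 CPM.

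Across 16892 genes that passed a filter on low counts, of 58735 in the table, 414 were higher in every high library than in any low library, or 2.45% of the genes. Another 343 genes, or 2.03%, were lower in every high library than in any low library. Such genes are called apart below. The rule used this contrast, so these shares carry no weight as evidence. A difference of 2-fold or more was found in 626 genes in the higher direction and in 165 in the lower direction, of which 186 and 38 were also apart. Genes that were higher therefore included more large differences, whereas those that were lower were mostly small steps. The difference between the high control library and the other 4 control libraries correlated across genes with that between the 4 high IL-15 libraries and IL-15 2 (Pearson r = 0.46, Spearman rho = 0.44, 16892 genes). These differences share no library, although genes of a library are not independent and the sides were chosen on the same counts.

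The balance of directions depended on scaling. With TMM, 54.7% of the genes apart were higher in the high libraries. With library totals alone the share was 82.6% (640 higher and 135 lower), and with upper quartile scaling 75.4% (539 and 176). Under library totals the median difference of all genes moved from -0.01 to 0.11 on the log2 scale, so the differences below are relative to the TMM reference. DESeq2 size factors gave 422 higher and 332 lower, and the deposited FPKM values gave 389 and 402.

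The largest increases, by the rule for named genes, belonged to genes with low or moderate levels in the low libraries. Values below follow the order control 1, IL-15 1, IL-15 3, IL-15 4 and IL-15 5 for high libraries, then control 2, control 3, control 4, control 5 and IL-15 2 for low libraries. LOX encodes lysyl oxidase, which cross-links collagen and is also known as a hypoxia-induced gene (chromosome 5, 122063195 to 122078360, hg38). It stood at 195, 30.6, 66.4, 105 and 158 CPM in the high libraries against 21.9, 1.98, 2.55, 8.13 and 7.48 CPM in the low libraries. The log2 difference was 3.94, the largest of the named genes, and the closest pair was IL-15 1 and control 2. It was 5.11 within the control group and 3.33 within the IL-15 group.

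SLC4A4 encodes a sodium bicarbonate cotransporter. Its level was 248, 276, 179.7, 134 and 152 CPM in the high libraries and 104, 55.4, 10.2, 3.85 and 21.6 CPM in the low libraries, a log2 difference of 3.11. The low libraries spread widely, with control 2 close to the high side and control 5 far below it. BHLHE41, a basic helix-loop-helix repressor of the circadian clock, stood at 14.1, 34.6, 45.6, 26.2 and 12.6 CPM against 1.34, 0.956, 7.02, 1.35 and 3.82 CPM. BEND4, named for its BEN domain, showed 18.9, 24.1, 14.5, 29.4 and 19.7 CPM against 7.97, 1.09, 0.754, 0.571 and 1.33 CPM. Here the high libraries lay close together, and control 2 was again the nearest low library.

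PKNOX2, a homeobox transcription factor, was highest in control 1 at 32.4 CPM, with 6.40 to 11.4 CPM in the other high libraries and 0.143 to 2.75 CPM in the low libraries. GRIK1, a kainate receptor subunit, ranged from 2.20 to 19.4 CPM in the high libraries and from 0.409 to 1.43 CPM in the low libraries. STEAP4, a metalloreductase and a member of the androgen response list, reached 76.7 CPM in IL-15 4 alone. Its other high libraries held 3.23 to 15.3 CPM, and the low libraries 0.341 to 2.57 CPM. GLP1R, the receptor for the incretin GLP-1, was likewise carried by 1 library, with 37.0 CPM in IL-15 5 and 1.57 to 6.54 CPM in the other high libraries against 0.273 to 1.41 CPM. TRIM49D1 ranged from 1.61 to 40.8 CPM against 0.137 to 1.57 CPM, but it has near-identical copies among which reads may be divided, so its value is uncertain. For STEAP4 and GLP1R the SD over the high libraries, 30.2 and 15.2 CPM, exceeded the mean of 23.2 and 10.0 CPM.

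The genes with the largest decreases had higher levels in the low libraries. SGK1 encodes a kinase induced by serum, glucocorticoids and androgens (chromosome 6, 134169246 to 134318112, hg38). It stood at 6.90, 6.26, 9.65, 7.08 and 13.4 CPM in the high libraries against 35.2, 18.6, 206, 24.1 and 152 CPM in the low libraries. The high libraries were uniformly low, and the low libraries fell into 3 at 18.6 to 35.2 CPM and control 4 and IL-15 2 far above. The log2 difference was -2.70, with -2.60 within the control group and -4.10 within the IL-15 group.

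FRY, a large microtubule-binding protein, showed 13.4, 5.64, 8.03, 22.7 and 24.2 CPM against 40.6, 114, 70.6, 58.4 and 48.5 CPM (log2 difference -2.27). HOXB9, a posterior homeobox transcription factor, showed 2.49, 1.65, 2.93, 4.43 and 4.40 CPM against 8.18, 10.0, 12.4, 10.5 and 13.5 CPM (log2 difference -1.80). The means of HOXB9 were 3.18 ± 1.22 CPM in the high and 10.9 ± 2.07 CPM in the low libraries (SD, n = 5). TNFRSF11A, which encodes the receptor RANK, was lower as well, at 5.86 ± 1.01 against 15.2 ± 5.71 CPM. ANKRD44, an ankyrin repeat protein, stood at 12.1 ± 3.98 against 28.6 ± 5.63 CPM. MYLK, myosin light chain kinase, stood at 30.7 ± 10.7 against 80.9 ± 42.9 CPM. MANEA, an endomannosidase of glycoprotein processing, had IL-15 5 as its highest high library at 91.1 CPM and IL-15 2 as its lowest low library at 96.3 CPM. DGKH, a diacylglycerol kinase, came closer to overlap, with IL-15 4 at 35.6 CPM and control 2 at 36.8 CPM. EXPH5, DGKH and CD163L1 complete the 10, with log2 differences of -1.56, -1.29 and -1.41.

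**Figure D2:**
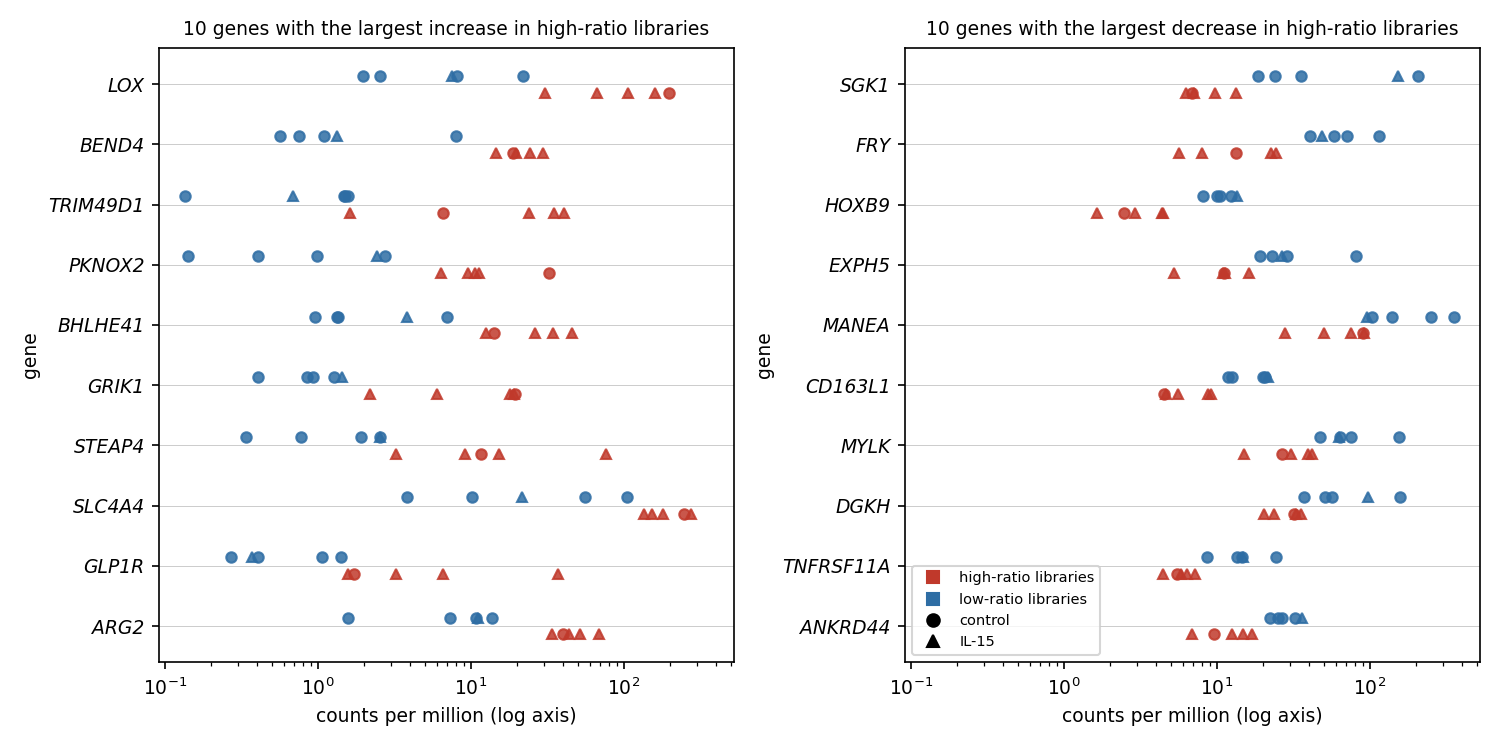
CPM on a log axis for the 10 protein-coding genes with the largest increase (left) and the largest decrease (right) in high libraries, 1 point per library, high in red and low in blue, circles for control and triangles for IL-15. No red and blue points of a gene overlap, as the rule for naming them requires, and the red points of STEAP4 and GLP1R include 1 far above the rest.

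Most genes of the ribosome and of translation had a lower mean in the high libraries, and for most of them the sides overlapped. Of 48 large-subunit cytosolic ribosomal protein genes with enough counts, 46 had a difference below 0, with a median of -0.30, and 0 were apart. Of 32 small-subunit genes 29 were below 0, with the same median of -0.30, and only RPS3A was apart. Over all genes the median was -0.01, and 48.9% had a difference above 0. Of all genes 2.45% were apart and higher and 2.03% apart and lower. Counts for these families and for the lists that follow are to be read beside these shares. The median level of both families falls in the highest of 5 classes of mean level. In that class the median difference was -0.13, and 3.67% of genes were apart and lower. Under the 4 other scalings the large-subunit median ranged from -0.32 to -0.18. The share of counts in cytosolic ribosomal protein genes overlapped between sides, at 5.40 to 8.36% in the high libraries and 6.83 to 9.42% in the low libraries.

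RPLP0, a stalk protein of the large subunit, stood at 3585, 2662, 2450.0, 3071 and 3800.0 CPM against 3997, 3938, 3703, 4708 and 3878 CPM. Only IL-15 5 in the high group reached the range of the low group. RPS3A, a small-subunit protein, stood at 768 ± 66.1 CPM against 982 ± 129.6 CPM (SD, n = 5), with the highest high library at 861 and the lowest low library at 879.5 CPM. EEF1A1, which delivers aminoacyl-tRNA to the ribosome, was 7177 ± 1650.2 against 9291 ± 505 CPM and overlapped, because IL-15 5 was at 9723 CPM. By library, the median ribosomal protein gene was lowest in IL-15 3, at -0.51 for the large subunit relative to each gene's mean, and highest in control 5, at 0.48. Control 1 at 0.05 and IL-15 5 at 0.15, both high libraries, lay above control 3 at 0.02 and control 4 at -0.08. The median difference of the large subunit was -0.11 within the control group and -0.33 within the IL-15 group, and that of the small subunit -0.09 and -0.33.

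Translation factors and ribosome assembly factors had differences of the same size. In the translation factor list 21 of 23 genes were below 0, with a median of -0.28. Its members EIF3E and EIF3M, both subunits of the initiation factor that binds the small ribosomal subunit, were apart. EIF3E stood at 221, 195, 189.5, 241 and 228 CPM against 359, 264, 271, 353 and 368 CPM, or 1.49-fold higher in the low libraries. EIF3M was 116 ± 9.50 against 169 ± 30.2 CPM. Of 30 genes for ribosome biogenesis and other MYC targets 26 were below 0, with a median of -0.26, and 2 were apart. NOP14, needed for assembly of the small subunit, was 74.3 ± 7.90 CPM in the high and 106 ± 6.98 CPM in the low libraries. By library, the sides overlapped in the translation factor and ribosome biogenesis lists. IL-15 5, a high library, had a median of 0.13 in each, above control 3 (0.01 and -0.03) and control 4 (-0.03 and -0.01). The lysyl-tRNA synthetase KARS was the only apart member of 20 aminoacyl-tRNA synthetases, at 139.8 to 170.3 against 187 to 219 CPM.

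Most nuclear genes of the mitochondrial lists had a lower mean in the high libraries, and for most of them the sides overlapped. Of 78 mitochondrial ribosomal protein genes 74 were below 0, with a median of -0.28. Of these genes 10 were apart and lower, beside 2.03% of all genes. The library medians of this family were between -0.37 and -0.04 in the high libraries and between -0.09 and 0.33 in the low libraries. MRPL19 stood at 53.0, 48.0, 46.8, 54.1 and 51.0 CPM against 72.0, 70.0, 54.4, 64.9 and 94.5 CPM. The high values were nearly constant and control 4 was the low library next to them. MRPL15 was 46.3 ± 5.81 against 66.8 ± 9.72 CPM.

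All 23 genes of respiratory chain complexes II to IV were below 0, with a median of -0.26. Of these genes 5 were apart and lower, beside 2.03% of all genes. COX5A, a subunit of cytochrome c oxidase, stood at 115, 106, 97.3, 120.2 and 115 CPM against 145, 145, 136, 144 and 165 CPM. For UQCRH of complex III the high libraries had 237 ± 21.0 and the low libraries 296 ± 34.2 CPM. Complex I had a median of -0.21, with 28 of 37 genes below 0 and NDUFB4 apart. ATP synthase had a median of -0.23, with 17 of 18 genes below 0 and 3 apart, among them ATP5F1C at 157 ± 8.81 against 199 ± 17.7 CPM. By library the sides overlapped in both lists. Control 4, a low library, stood at -0.07 for complex I and -0.14 for ATP synthase. IL-15 5, a high library, stood at 0.015 and 0.023. Genes encoded by the mitochondrial genome did not share the shift of the nuclear genes. Of these, 9 of 13 were below 0 with a median of -0.05, and 0 were apart. This median turned positive under library totals (0.06) and upper quartile scaling (0.02). MT-CO1 averaged 19444 ± 2762 CPM in the high and 19148 ± 1802 CPM in the low libraries.

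Other housekeeping lists also had medians below 0. So did the highest of 5 classes of genes by mean level, at -0.13, and the class below it, at -0.08. The heat shock chaperones had 19 of 22 genes below 0 and a median of -0.24. CCT2, a subunit of the cytosolic chaperonin, was apart at 238 to 269 against 298 to 374 CPM, as was the HSP90 co-chaperone FKBP4. The proteasome had 26 of 31 genes below 0 and a median of -0.17, with the deubiquitinase PSMD14 apart at 56.2 ± 4.50 against 78.6 ± 14.3 CPM. In the peroxisome and redox list 23 of 28 were below 0, and the peroxiredoxin PRDX1 and the glutathione transferase GSTO1 were apart. All 13 subunits of RNA polymerase II were below 0, with a median of -0.16 and 0 apart. Of 34 cell cycle genes 33 were below 0, with a median of -0.22 and 0 apart. The median was -0.08 within the control group and -0.36 within the IL-15 group. By library, the lowest list median was that of control 4, a low library, at -0.51, and the other low libraries were between 0.22 and 0.30. The high libraries ranged from -0.42 in IL-15 3 to 0.14 in IL-15 1. MKI67, a marker of proliferating cells, overlapped fully, at 133 ± 22.8 against 149 ± 41.9 CPM.

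Lipid synthesis was mixed. Of 23 cholesterol synthesis genes 20 were below 0, with a median of -0.19, but the only apart member was higher. This was the sterol reductase TM7SF2, at 92.9 ± 7.46 against 66.4 ± 6.72 CPM. FASN, the fatty acid synthase, stood at 2066, 1870.0, 1044, 2809 and 1879 CPM against 2511, 3208, 2626, 4920.0 and 2950.0 CPM. Its log2 difference of -0.77 was large, but IL-15 4 overlapped the low libraries.

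**Figure D3:**
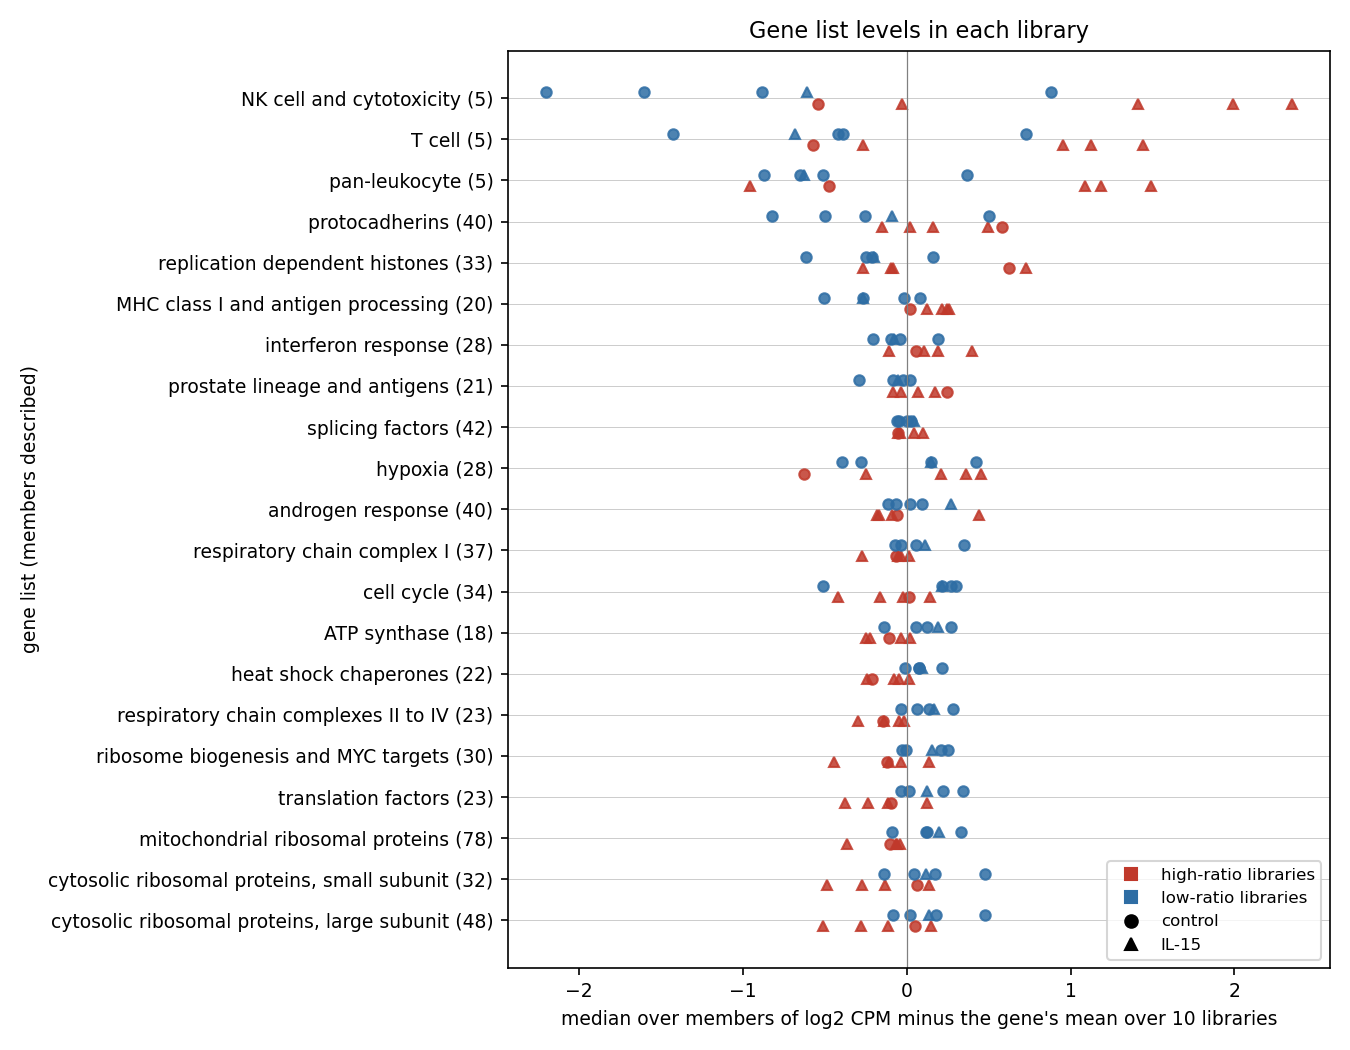
Median over the described members of each list (number in brackets) of log2 CPM minus the gene's mean over 10 libraries, 1 point per library, high in red and low in blue, circles for control and triangles for IL-15. Lists of the ribosome, mitochondria and chaperones lie within about 0.5 of 0 with red points shifted left, whereas the leukocyte lists at the top spread beyond 1 and hold red points on both sides of 0.

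The androgen axis did not move as a block. Of 40 androgen response genes 25 were below 0, with a median of -0.10 that became 0.02 under library totals, and STEAP4 was the only member apart. KLK3 stood at 6031, 5980.0, 5710.0, 7434 and 4897 CPM against 3323, 4105, 4768, 5441 and 3840.0 CPM. Its log2 difference was 0.49, with control 5 inside the high range. FOLH1, the prostate-specific membrane antigen, went in the other direction, at 499 ± 76.0 against 707 ± 172 CPM. IL-15 2 at 497 CPM and control 4 at 575 CPM lay among the high libraries. The log2 difference of FOLH1 was -0.32 within the control group and -0.07 within the IL-15 group. The prostate lineage and antigen list had 16 of 21 genes above 0 and a median of 0.17, with 0 apart.

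Hypoxia genes also gave no common direction although LOX belongs to them. Of 28 such genes 13 were above 0, with a median of -0.05 that turned to 0.07 under library totals, and LOX was the only one apart. The list median of control 1 was -0.62 and that of IL-15 5 was 0.45, both high libraries and the extremes of all 10. VEGFA, a hypoxia-induced growth factor, averaged 426 ± 162 against 420.2 ± 149 CPM. Splicing factors had a median of 0.02, and 44 regulators of chromatin with long transcripts had a median of -0.07 that turned positive (0.04) under library totals.

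Antigen presentation genes were more often higher. Of 20 MHC class I and antigen processing genes 15 were above 0, with a median of 0.33. B2M, the light chain of MHC class I, stood at 239, 211, 269.5, 279 and 232 CPM against 128, 165, 195, 197 and 214 CPM, where only IL-15 2 reached the lowest high library. PSMB9, an immunoproteasome subunit, was the only member apart, at 1.41, 2.00, 2.55, 2.93 and 7.26 CPM against 0.564, 1.09, 0.0580, 0.642 and 0.424 CPM. Interferon response genes were divided, with 16 of 28 above 0 and a median of 0.28. IFI6 was apart and higher (14.1 ± 9.71 against 6.16 ± 1.56 CPM), with IL-15 5 at 31.4 CPM above the 8.91 to 10.8 CPM of the other high libraries. IFIH1, a sensor of viral RNA, was apart and lower (3.97 ± 1.15 against 7.22 ± 1.32 CPM).

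Human leukocyte markers moved with the side in some libraries only. All 20 T cell markers had a higher mean in the high libraries, and 5 of them passed the filter on counts. A gene can pass that filter through the high libraries alone, so the medians over those 5 are not support. The summed T cell markers stood at 7.21, 57.2, 34.8, 32.3 and 10.1 CPM in the high libraries and at 7.40, 25.4, 5.57, 7.55 and 7.15 CPM in the low libraries. IL-15 1, 3 and 4 were thus the richest, while control 1 resembled the low libraries and control 3 resembled the rich ones. CD8A, the coreceptor of cytotoxic T cells, was at 1.02 CPM in control 1 but at 11.3 CPM in IL-15 1. GNLY, the cytotoxic granule protein granulysin, stood at 1.66, 13.5, 12.6, 7.08 and 2.42 CPM against 0.634, 6.35, 0.232, 1.28 and 0.849 CPM. Of the T cell and the NK and cytotoxicity lists 0 described members were apart. Over the 5 members of each list that passed the filter, the within-group medians were -0.26 (control) and 2.02 (IL-15) for T cells. For NK and cytotoxicity genes they were 0.01 and 1.68. These medians are not support either, for the same reason. Each also rests on 1 library on 1 side, control 1 or IL-15 2. PTPRC, the common leukocyte antigen, had 181 counts over the high and 65 over the low libraries and did not pass the filter.

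Markers of other cells overlapped between the sides: summed endothelial markers were 20.5 to 47.0 against 15.1 to 28.7 CPM, and summed fibroblast markers 39.4 to 96.1 against 46.6 to 95.7 CPM. Myeloid markers summed to 3.64 to 7.43 against 5.13 to 7.98 CPM. The exception was the B and plasma cell list, at 76.1 to 110.6 against 111 to 178 CPM, of which 97.4% was SDC1. SDC1 encodes a syndecan that epithelial cells also express, and MS4A1, a defining B cell marker, had no count in any library. The part of these markers in the axis was not tested.

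Replication-dependent histones and protocadherins had medians above 0. Of 33 replication-dependent histone genes 29 were above 0, with a median of 0.42 and 0 apart. HIST1H1C, a linker histone, was 116 ± 44.5 against 64.0 ± 19.2 CPM. The histone medians per library were carried by control 1 (0.63) and IL-15 4 (0.73), and the other 3 high libraries were between -0.27 and -0.08. Protocadherins, cell adhesion proteins encoded in clusters, had 36 of 40 genes above 0 and a median of 0.49, with only PCDH12 apart. Their library medians were 0.58, 0.16, 0.49, 0.02 and -0.15 in the high libraries and -0.50, -0.82, 0.50, -0.25 and -0.09 in the low libraries. Control 4, a low library, thus stood above every high library except control 1. Within the control group the median difference was 0.97 and within the IL-15 group 0.18. Reads may be divided among copies or shared exons in both families, so single members are uncertain.

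The direction of a gene's difference varied with its level. The ratio is a scaling factor of a library, so this relation is not independent of how the libraries were sorted. In the lowest of 5 classes of mean level, 4.00% of genes were apart and higher and 0.414% apart and lower. In the highest class the shares were 0.799% and 3.67%. The median difference was 0.26, 0.17, -0.04, -0.08 and -0.13 from the lowest to the highest class. Protein-coding genes in the lowest class had a median of 0.33, and the pattern was thus present without noncoding genes. A gene of low level can pass the filter on counts through the libraries of 1 side alone. The shares and medians of the lowest classes, and of lists at that level, are therefore not support. The proteasome list, with a median level of 133 CPM and a median difference of -0.17, falls in the highest class. Histones and protocadherins, with median levels of 3.84 and 2.58 CPM, fall in the class next to the lowest. How much of a list's difference follows its level was not tested. Antisense genes had a median of 0.22, lincRNA genes 0.18, and protein-coding genes -0.05. The counting is not stated to use strand, so reads of antisense genes cannot be told apart from those of their partners. Gene length gave a smaller trend, with a median of 0.07 in the shortest of 4 classes and -0.03 in each of the others.

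**Figure D4:**
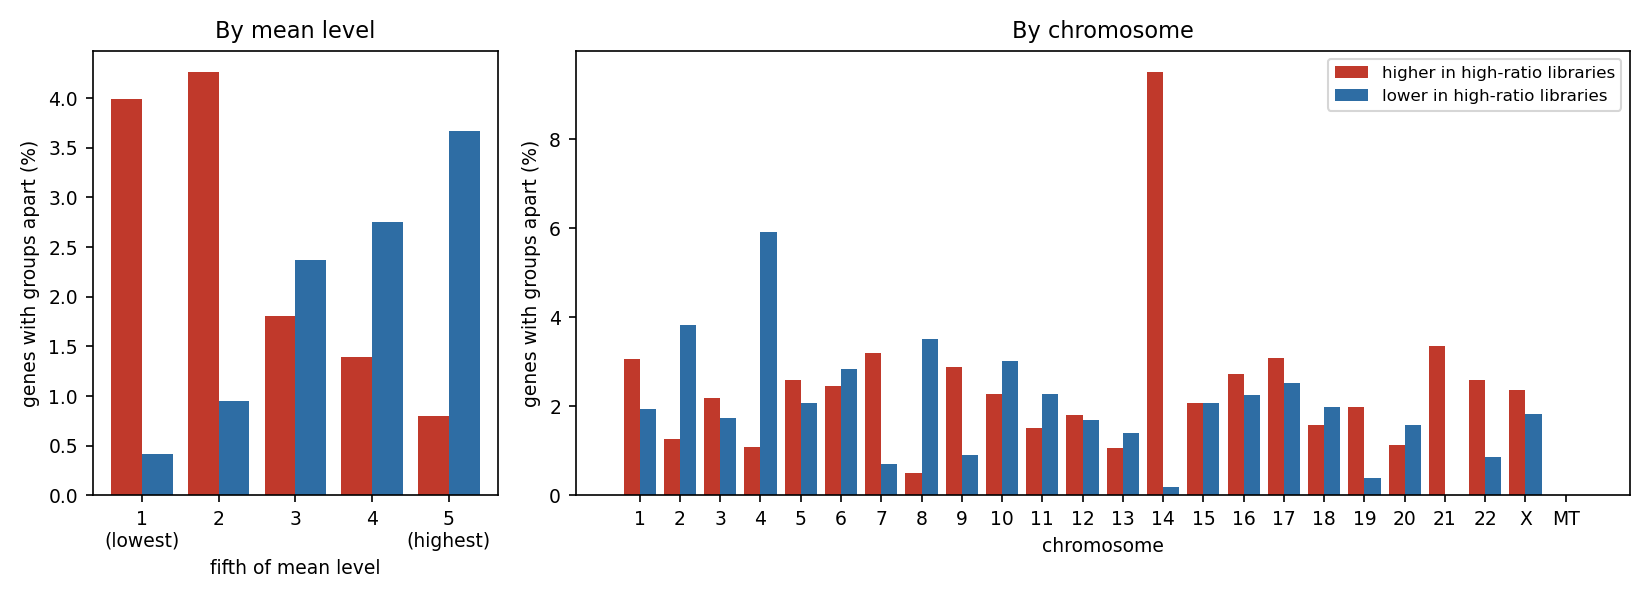
Percent of described genes whose high and low libraries do not overlap, higher (red) or lower (blue) in high libraries, by class of mean level (left) and by chromosome (right). Red falls from 4.00% to 0.799% and blue climbs from 0.414% to 3.67% with level, and chromosome 14 has the tallest red bar at 9.51%.

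Genes apart were spread unevenly over chromosomes, a description added after the values were seen. On chromosome 14, 52 of 547 genes (9.51%) were apart and higher and 1 was apart and lower, with a median of 0.23. On chromosome 4, 33 of 558 (5.91%) were apart and lower and 6 were apart and higher, with a median of -0.22. Chromosome 2 had 39 of 1019 apart and lower (3.83%), and chromosome 8 had 21 of 597 (3.52%).

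Chromosome-wide levels were next compared by library, over protein-coding genes with a mean of at least 5 CPM. For chromosome 14 the median relative to each gene's mean was 0.10, -0.18, 0.21, 0.13 and 0.16 in the high libraries and 0.05, -0.03, -0.19, -0.18 and -0.04 in the low libraries. IL-15 1 was thus as low as control 4 and control 5 in spite of its high ratio. For chromosome 4 the extremes were IL-15 5 at -0.37 and IL-15 2 at 0.26. IL-15 2 also stood at 0.42 on chromosome 2, where every other library was between -0.12 and 0.07. IL-15 5 stood at 0.27 on chromosome 9 and 0.19 on chromosome 7. On chromosome 8, control 2 was at -0.38 for genes that start below 50 Mb and at 0.36 for genes further along, while the other libraries were between -0.04 and 0.15 and between -0.11 and 0.12. On chromosome 11, control 2, 3 and 5 stood at 0.24, 0.28 and 0.31 and IL-15 3 at -0.21. On chromosome 13, control 4 and IL-15 2 were both at 0.30, whereas control 1 was at -0.21 and control 5 at -0.30. On chromosome 21, IL-15 1, IL-15 5 and control 3 stood at 0.22, 0.25 and 0.35 and control 1 at -0.24. On chromosomes 11 and 13 the libraries at the top were thus all low libraries. The bottom held both sides, with control 4 at -0.19 on chromosome 11. The median difference of high minus low on chromosome 11 was -0.21. On chromosome 21 libraries of both sides stood at either end, with control 2 at -0.20. Of 230 chromosome medians, 19 were beyond 0.2 in either direction. They came from 9 of the 10 libraries, and IL-15 4 had none.

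**Figure D5:**
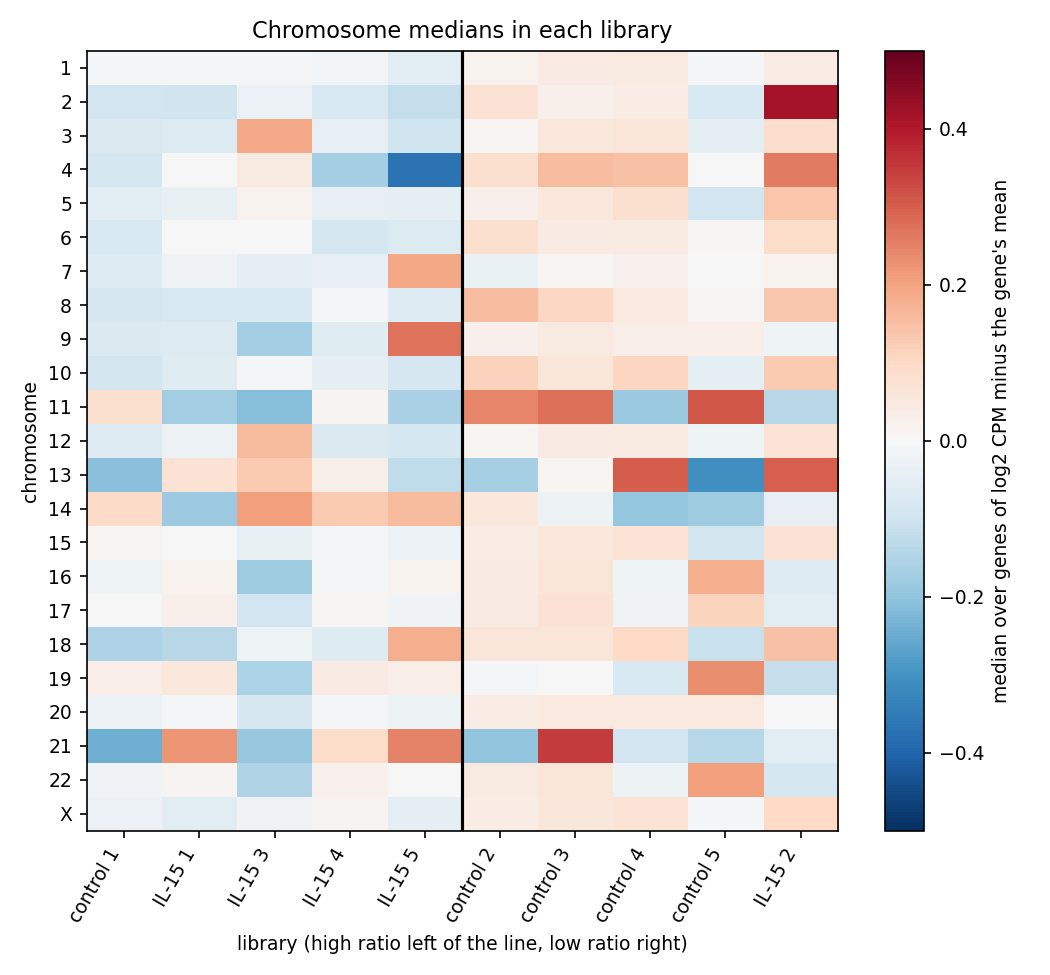
Median over protein-coding genes (mean of at least 5 CPM) of log2 CPM minus the gene's mean over 10 libraries, by chromosome (rows) and library (columns), from -0.5 (blue) to 0.5 (red), with high libraries left of the line. The cell of IL-15 2 on chromosome 2 is at 0.42 and that of IL-15 5 on chromosome 4 at -0.37, and chromosome 14 is red in 4 of the 5 high libraries.

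When each library's chromosome median was subtracted, 23 genes of chromosome 14 (4.20%) were apart and higher, beside 3.05% of all genes, and 21 of the 23 were among the 52 apart before the subtraction. The shares on chromosome 21 (4.31%) and chromosome 22 (4.30%) were then as high. Without that subtraction, windows of 2 Mb were listed where 5 or more genes were apart in the same direction. High shares in them follow in part from this choice, and clustering was not tested. The listed windows had 5% to 50% of their genes apart, and not all are described below. Apart and higher were 2.45% of all genes and 9.51% of those on chromosome 14. Between 66 and 68 Mb of chromosome 14, 7 of 16 described genes were apart and higher, and 15 of 16 were above 0. They were ATP6V1D, TMEM229B, PLEKHH1, PIGH, ARG2, RDH11 and RDH12, named after their values were seen. RDH11, a retinol dehydrogenase (chromosome 14, 67676801 to 67695814, hg38), stood at 352, 242, 383, 353 and 358 CPM against 162, 160.3, 124, 89.1 and 149 CPM. ARG2, the mitochondrial arginase, stood at 39.9, 33.9, 51.8, 44.0 and 68.6 CPM against 13.8, 7.30, 10.8, 1.57 and 11.1 CPM. For PLEKHH1 the values were 244, 176, 278, 256 and 254 CPM against 112, 103, 126, 71.9 and 106 CPM. In all 3 genes IL-15 1 was the lowest high library and control 5 the lowest low library. PLEKHH1 overlaps TMEM229B and PIGH in position, so without strand their reads cannot be told apart.

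Further along chromosome 14, between 72 and 74 Mb, 5 of 21 genes were apart and higher, among them the splicing factor RBM25 (178 ± 34.9 against 133 ± 8.55 CPM). Between 24 and 26 Mb, 5 of 34 were, among them LTB4R, a leukotriene B4 receptor, at 36.7, 59.6, 116, 56.1 and 72.1 CPM against 14.3, 24.2, 23.1, 33.5 and 18.4 CPM. Between 18 and 20 Mb, 5 of 10 were, among them the pseudogene DUXAP10 at 88.7 to 127 CPM against 50.1 to 79.7 CPM. Outside chromosome 14, 6 of 22 genes between 102 and 104 Mb of chromosome 7 were apart and higher (27.3%). They were SPDYE6, AC091390.3, 2 entries named POLR2J3, POLR2J2 and RELN, named after their values were seen. AC091390.3 is annotated as a pseudogene, and all but RELN may share reads with close copies, so their counts are uncertain. RELN, which encodes the secreted matrix protein reelin, stood at 0.959, 2.34, 1.87, 1.72 and 2.49 CPM against 0.4934, 0.887, 0.174, 0.927 and 0.637 CPM. Control 1 was the high library next to the low ones. On chromosome 21, 5 of 25 genes between 42 and 44 Mb were apart and higher. They included TFF3, a secreted trefoil factor, at 8.12 to 30.7 CPM against 3.60 to 8.07 CPM, and ABCG1, a sterol transporter, at 6.38 to 16.5 CPM against 2.19 to 5.85 CPM. On chromosome 2, 5 of 29 genes between 130 and 132 Mb were apart and higher. These include FAR2P3, at 2.20 to 11.2 CPM against 0.0683 to 1.74 CPM, and KLF2P1, KLF2P3, CYP4F30P and POTEJ. Most of these belong to families with close copies on other chromosomes, so their counts are uncertain. In the lower direction, 5 of 44 genes between 26 and 28 Mb of chromosome 2 were apart, including HADHA, a subunit of the mitochondrial trifunctional protein, at 138 to 166 against 172 to 224 CPM.

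Further genes were apart. NUP88, a nuclear pore protein, was 61.2 ± 5.62 CPM in the high and 87.4 ± 3.73 CPM in the low libraries. ZNF75D, a zinc finger gene on the X chromosome, was 53.6 ± 5.93 against 112 ± 32.4 CPM. GRHL2, an epithelial transcription factor, was 206 ± 23.2 against 285 ± 34.6 CPM. TFEB, the regulator of lysosome genes, was 72.6 ± 15.8 against 110.2 ± 19.2 CPM, while the lysosome list itself had a median of -0.09 that turned to 0.03 under library totals. Among transporters the glutamate carrier SLC1A1 was 7.71 ± 1.94 against 2.15 ± 1.61 CPM, and SLC16A9 was 22.6 ± 3.63 against 8.89 ± 4.66 CPM. Of 210 solute carrier genes 13 were apart and higher and 5 apart and lower, with a median of 0.04. Over all genes these shares were 2.45% and 2.03%. In the matrix list MMP14, a membrane collagenase, was higher (1.99 ± 0.473 against 0.812 ± 0.371 CPM), and its inhibitor partner TIMP2 was lower (85.6 ± 16.7 against 139 ± 33.1 CPM).

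With the high or low side as a term, IL-15 was compared with control across 16892 genes by edgeR's quasi-likelihood test. At an adjusted p of 0.05, 0 genes (0%) were called, and 558 had an unadjusted p under 0.05. The smallest adjusted p was 0.9969. DESeq2 also called 0 genes, with 645 at an unadjusted p under 0.05 and a smallest adjusted p of 0.0567. With a filter at a mean of at least 1 CPM, edgeR's smallest adjusted p was 0.1275. Without the side as a term edgeR called 0 genes, with 1090 at an unadjusted p under 0.05. With the side in the model, LOX differed between IL-15 and control by -0.69 on the log2 scale and SGK1 by 0.78, both with an edgeR adjusted p of 0.9969.

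The call of 0 depended on 1 library. Without IL-15 2, edgeR called 3 genes, all lower in the IL-15 group, and the fit then compared control 1 with the high IL-15 libraries, with this lone control assumed to vary like the other libraries. PPP1R37, a regulatory subunit of a protein phosphatase, had 14650 counts in control 1 and 602 to 1327 counts in every other library (edgeR adjusted p = 0.0001033). ZFAT, a zinc finger gene, had 772 counts in control 1 and 91 to 211 elsewhere (edgeR adjusted p = 0.02796). PARD3, a cell polarity gene, had 722 counts in control 1 and 118 to 196 elsewhere (edgeR adjusted p = 0.03113). In all 3 genes control 1 alone stood out, on 3 different chromosomes, and neither the remaining controls nor the high libraries shared its level.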

How the data were processed

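RNA from 10 LNCaP xenografts was isolated with TRIzol for Illumina sequencing, per the labels' protocols. Per the submitters' processing notes, build hg38, featureCounts 1.5.0-p3, HISAT2 2.0.5, fastp, GATK 4.1.1.0 and DESeq2 1.20.0 are named, without roles. The sources used here do not state the strand handling, the treatment of mouse reads or the annotation release. Whole-number read counts per gene and FPKM values for the 10 libraries were deposited by the authors, per the file headers. A deposited table of group means was not used.

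The size ratio was the median over genes with 10 or more counts of the count per length and per count total, divided by FPKM. The libraries, gene lists and families were chosen with earlier results of these data known. Genes were kept with filterByExpr (minimum count 10) in edgeR 4.0.16 (R 4.3.3), leaving out 519 genes (the Y-linked ones and XIST), and scaled by TMM. A difference is the mean log2 CPM (prior count 2) of the 5 high minus the 5 low libraries, and folds are on that scale, which understates low genes. Of 54 lists and families 47 had at least 5 kept members; 1 of 893 list symbols was not found. Named genes were the 10 protein-coding genes per direction with the largest difference among those apart in the same direction in both treatments and with a mean level of 5 CPM or more, then up to 3 members per list and a fixed set; some genes that the rule takes are left out of the text. The treatment test was edgeR's quasi-likelihood test with Benjamini-Hochberg adjustment, checked on simulated data, with DESeq2 1.42.0 as an alternative. Alternatives were other scalings, the deposited FPKM (offset 0.1), other filters, within-treatment differences, a replicate block and leaving out each library. Nothing says that libraries are separate experiments beyond their labels, so p-values reflect only how much these libraries vary, and intervals from counts cover counting error only. No human genome or sequence table was used, so no sequences are shown.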

Additional observations from a re-analysis of the deposited data

Results flagged for a closer look

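In 4 of 94 groups of 5 libraries, 1 library stood apart from the other 4 by Dixon's test, and chance marks about 1 in 20 groups. The total of IL-15 2, a low library, was 19.32 M counts, above the other IL-15 libraries. The share of counts on the mitochondrial chromosome was 5.843% in IL-15 5, the lowest of the IL-15 group. The share of counts in the 100 most abundant genes was 23.42% in control 5, the highest of the control group. EXPH5, an effector of vesicle transport that was lower in the high libraries, stood at 80.54 CPM in control 3, above the other low libraries.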

How the results depend on the processing

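The difference in ratio between IL-15 and control tumours, 0.0749, stayed positive under every alternative run. It was 0.0626 with the DESeq2 size factor per count (exact permutation p = 0.1349). When 1 library was left out it ranged from 0.0495 to 0.0976, and the exact permutation p fell to 0.03175 without control 1. The labels do not say whether the replicate numbers pair the libraries. Same-numbered libraries had correlations from -0.22 to 0.26, and 2 of 10 libraries correlated best with their own number. Such correlations cannot decide whether the design was paired. With the numbers used as a pairing all the same, the difference was 0.0749 in a paired sign-flip test with an exact p of 0.125 (4 of 5 pairs higher with IL-15, smallest possible p 0.0625), and edgeR with the replicate block called 0 genes. Leaving out 1 library gave 0 to 3 genes called for IL-15 against control.

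The number of genes apart, 757 in all, ranged from 926 to 1519 when 1 library was left out, from 529 to 815 for higher and from 373 to 704 for lower genes, because fewer libraries must not overlap. The largest counts came without control 5 (1519), without IL-15 5 (1397) and without control 4 (1333). With library totals alone 640 were higher and 135 lower, of which 549 were shared with the 757. Upper quartile scaling gave 176 lower. Subtraction of chromosome medians, chosen after seeing the data, gave 185 lower. Requiring groups not to overlap within each treatment instead of over all libraries gave 2758 genes, 1362 higher and 1396 lower. Of 844 list medians under alternatives 40 changed sign, all in lists with a median of at most 0.0986 in size, and of 1688 values of named genes 40 changed sign, 0 of them in genes that were apart. With 5 libraries per side and a threshold set within a narrow gap, membership of IL-15 5 and control 2 rests on small differences in the ratio. At 13.6 to 19.3 M counts, genes near 1 CPM rest on few reads.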
